A study of Mus musculus with 6 samples.

Results

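Most of the mouse genome is methylated at CpG sites, and stretches of low methylation that lie outside CpG-dense islands are uncommon. Here, 2579 windows of 1 kb were described that had few covered CpG sites, a low median level and no CpG-dense window beside them. A window entered when it lay on 1 of the 19 autosomes, held 3 to 9 CpG sites covered by at least 10 reads in all 6 libraries (shared sites), and had a median site level under 20%, where the level of a site is its percentage of methylated reads averaged over the libraries. In addition, no window with 10 or more shared sites was allowed within 2 windows on either side. The genome held 89813 windows with at least 3 shared sites, of which 59285 met the conditions on chromosome, site number and isolation, and the 2579 low windows were 4.35% of these. The measured level chose the windows, so their low level is a description and not a finding.

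The assay was reduced representation bisulfite sequencing, in which MspI cuts DNA at CCGG, short pieces are selected, and bisulfite tells methylated from unmethylated cytosines. All libraries came from bulk kidney cortex and outer medulla of wild-type male C57BL/6J mice, and the labels give no age. There were 3 groups of 2 libraries: kidneys whose left ureter had been tied and cut for 7 days in mice given saline (UUO, saline), sham-operated kidneys with no ligation, and kidneys obstructed for 7 days in mice given the agent called 5AZA at 1 mg/kg per day in saline (UUO, 5AZA). Sham 1 was the sham of the obstruction model, whereas the label of sham 2 ties it to ischemia/reperfusion at 48 hours. Whether the libraries of a group came from separate mice is not stated, so a p-value here measures the spread of these libraries alone, and that spread can be technical.

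In mammals, methyl groups are placed on cytosines of CpG pairs by DNA methyltransferases and kept through cell division. Promoter CpG islands are usually free of methylation, whereas CpG-poor stretches of low methylation often coincide with distal regulatory DNA such as enhancers, where bound transcription factors are known to go along with reduced methylation. Since a bulk kidney holds tubule, vessel, connective tissue and immune cells, a level between the extremes can come from some cells being methylated and others not. A changed share of cells and a changed level within cells therefore cannot be told apart in these data. No gene names or sequences are given, because no annotation of the build of the files (mm9) was used here.

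Over the shared sites of the 2579 windows, the libraries had between 686208 covering reads (sham 2) and 1263228 (saline 1). The median number of reads per window was 404 for saline 1, 348 for saline 2, 360 for sham 1, 213 for sham 2, 329 for 5AZA 1 and 345 for 5AZA 2. Sham 2 was thus the shallowest library, and its coverage per site, with a median of 35 reads, was well below the 52 to 65 reads of the others. It also had the lowest levels in most summaries below, and mean differences from sham are therefore given against sham 1 alone as well; counts of windows and median differences use both. Only 3 windows had more than 500 reads per site on average.

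The windows were isolated from CpG-dense windows by their shared sites, but many were not poor in CpG sites once shallowly covered sites were counted. With every site seen in any library at any coverage, the median number of sites per window went from 6 to 10, and 1365 of the 2579 windows (52.9%) held 10 or more sites. The same was true of only 15.4% of the 12650 isolated windows of 3 to 9 shared sites with a median of 20 to 80%, called isolated intermediate windows here, and of 11.96% of the 44056 with a median of 80% or more. In 594 of the low windows, a neighbour within 2 windows had 10 or more sites at any coverage. This left 964 windows (37.4%) that had fewer than 10 sites, with no neighbour of 10 or more, at any coverage. These 964 are called the sparse windows, and their values are given beside those of the whole set.

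Within a low window, levels of single sites fell into 2 separate groups. Of 16213 shared sites, 51.2% had a level under 5%, 10.6% a level of 5 to 10% and 7.48% one of 10 to 20%. Only 3.77% lay between 20 and 60%, and 4377 sites reached 60% or more. At least 1 site of 60% or more was present in 2435 windows (94.4%). Such a site was alone in 804 windows, 1 of a pair in 1350, 1 of 3 in 251 and 1 of 4 in 30. Only 52 windows had all their sites under 20%. The mean level of a window, with a median of 25.8% over windows, was accordingly far above its median level, with a median of 3.64%.

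**Figure D1:**
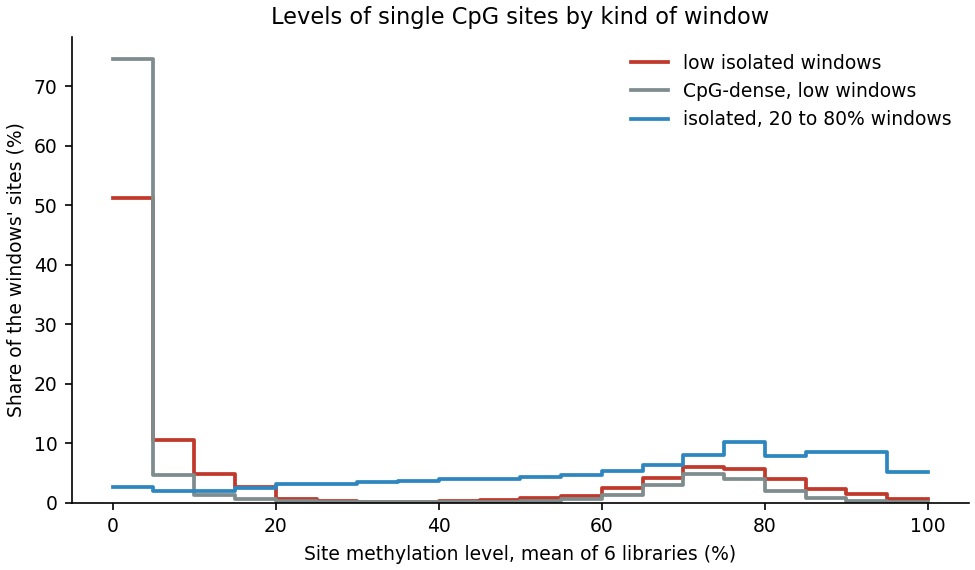
Share of CpG sites (y axis, percent of the sites of each kind of window) against the mean level of the site over 6 libraries (x axis, percent, bins of 5 points), for the low isolated windows (red), CpG-dense windows with a median under 20% (grey) and isolated windows with a median of 20 to 80% (blue). The low isolated windows have 51.2% of their sites in the lowest bin and a second, smaller group between 60 and 90%.

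The highly methylated sites sat at the outer edges of the covered stretch. The first shared site of a window was at 60% or more in 70.4% of windows and the last in 70.8%, against 6.67% of the sites in between, of which 91.5% were under 20%. In windows with 7 sites the median level was 72.1% at the first site, between 2.37 and 2.90% at the 5 inner sites and 72.4% at the last. Windows of 5, 6, 8 and 9 sites had the same shape, with inner medians between 2.22 and 3.03%. The median spacing of neighbouring high sites in a window was 111 bp, and 1773 of 1942 such spacings (91.3%) fell between 40 and 220 bp, the range of insert sizes selected for the libraries. Both outer sites were high in 1278 windows (49.6%), 1 of them in 1084 and neither in 217. In 996 windows both outer sites were high and every inner site was under 20%, and these stretches spanned a median of 114 bp. Coverage was similar at outer and inner sites, with medians of 52.7 and 56.3 reads per site.

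**Figure D2:**
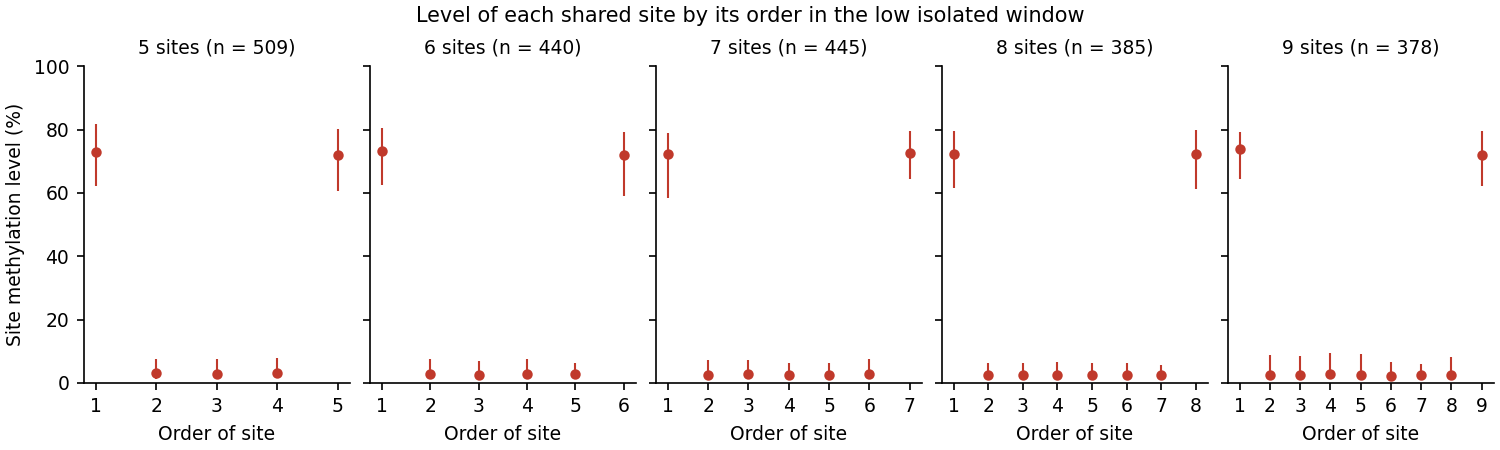
Median level (points) and interquartile range (bars) of each shared site by its order along the window (x axis), for low isolated windows with 5, 6, 7, 8 and 9 shared sites; the y axis is the site level in percent and n is the number of windows. The first and the last site have medians between 71.8 and 73.8%, and all inner sites have medians under 3.1%.

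Per the labels' protocols, methylated dCTP was among the nucleotides used to fill in the cut ends, which leaves a methylated cytosine at a fragment's filled end whatever the level in the tissue. The part of this step in the high outer sites was not tested. Outer sites were also higher than inner ones in the other isolated windows, but by less. Their mean was 79.7% against 48.5% inside in isolated intermediate windows and 94.1% against 85.8% in isolated windows of 80% or more, compared with 58.9% against 9.30% in the low windows. Other windows with a median under 20% had large gaps too. In saline, CpG-dense ones had 54.1% at outer and 13.0% at inner sites. Those with 3 to 9 shared sites within 2 windows of a CpG-dense window had 49.5 and 10.6%. The low isolated windows had 60.6 and 10.3% in saline. Because the rule used the median, short stretches of this shape were left out: 712 windows of 3 sites and 468 of 4 sites had both outer sites at 60% or more and every inner site under 20%, and none of them qualified. The low windows made up 1.15% of eligible windows with 3 sites and 22.7% of those with 9. The 144 low windows without any site of 60% or more had a mean level of 9.09 to 12.5% across libraries.

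Low windows were spread over all autosomes, with 59 (chromosome 18) to 241 (chromosome 7), or 3.11 to 6.42% of the eligible windows of a chromosome. Most stood alone: 2056 had no low isolated window next to them, and the others made up 251 runs of 2 windows and 7 runs of 3. One run of 3 lay on chromosome 19 at 43459001 to 43462000 (mm9), with 8, 9 and 8 shared sites, medians of 7.63, 1.87 and 2.93%, and 9, 21 and 18 sites at any coverage. Another, on chromosome 17 at 7164001 to 7167000, had medians of 2.74, 0.848 and 0.491%. The windows with the most sites (9) and the lowest means were led by chromosome 2 at 27370001 to 27371000, where all 9 sites lay within 36 bp and had levels of 0 to 5.14%. That window held 38 sites at any coverage. Its shared sites had as few as 11 to 14 reads in a library. There a count of 0 allows a level of up to 21.4 to 27.3% (3 reads, counting error only). Sites this close can be read on the same molecules. Close to the limit of the rule, the window on chromosome 11 at 84593001 to 84594000, with a median of 19.996%, was inside, and that on chromosome 7 at 140306001 to 140307000, with 20.01%, was outside.

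Surrounding DNA was more methylated. The nearest window that had 10 or more shared sites was a median of 25 windows away, or 33.5 for the sparse windows. This median was 31 for isolated intermediate windows and 42 for isolated windows of 80% or more. At a distance of 2 windows, 614 neighbours with shared sites had a median mean level of 83.2%, and 4.07% of them were under 20%. Directly adjacent windows had a median of 40.9% (1461 windows), against 81.5% for the neighbours of isolated intermediate windows and 91.8% for those of isolated windows of 80% or more. For the sparse windows the adjacent median was 53.5% and that at 2 windows 83.3%. Of the adjacent windows, 12.3% had a mean under 20%. The rule itself admits no neighbour with 10 or more shared sites at these distances.

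The first comparison concerned obstruction. Low isolated windows were more methylated in the obstructed, saline-treated libraries than in the sham libraries when sites or windows were averaged, at the weakly methylated inner sites as well as at the outer ones. Over the 2579 windows, saline 1 and 2 both had a mean level of 26.7%, sham 1 had 25.2% and sham 2 had 23.3%. Saline averaged 26.7% ± 0.0116 and sham 24.3% ± 1.33 (SD, n = 2 each), a difference of 2.42 percentage points, or 1.48 points against sham 1 alone. The sparse windows differed by 2.88 points, or by 1.79 points with only sham 1. Much of this was shared by the series: all 89813 windows differed by 1.87 points, or by 1.11 points with only sham 1. Isolated intermediate windows differed by 4.91 points, or by 3.33 points with only sham 1. With all reads of the windows pooled, so that deeply covered sites weigh more, the groups overlapped: saline had 25.9 and 26.6%, sham 26.1 and 23.4%, and the difference from sham 1 alone was 0.0984 points. By exact permutation (two-sided), p was 0.33; a design of 2 against 2 can reach no smaller value, so this test could not pass a threshold of 0.05 for any library mean. On each autosome the difference was positive, from 1.67 to 2.96 points; autosomes share their libraries and add no replicates.

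The 11225 sites of these windows with a mean level under 20%, which leave out the high outer sites, gave the plainest order of libraries. Their level was 5.00% in saline 1 and 4.94% in saline 2, 3.70% in sham 1, 2.76% in sham 2, and 3.76% and 3.75% in 5AZA 1 and 2. Both saline libraries were above the other 4. Saline exceeded sham by 1.74 points, or by 1.27 points against sham 1 alone, and the ratio of the group means was 1.54 (exact permutation p = 0.33, the smallest possible). With both sham libraries averaged, the ratio was similar elsewhere. At sites under 20% of all windows it was 1.49, and at those of isolated intermediate windows 1.53. Against sham 1 alone (2.38%), saline was 0.452 points higher at sites under 20% of all windows. That was a smaller ratio than in the low isolated windows. In isolated intermediate windows saline was 3.58 points above sham 1 (9.08%) at such sites. Taken by position instead, the 11055 inner sites had 10.4 and 10.3% with saline against 9.04 and 7.88% for sham 1 and 2. The 5158 outer sites were at 60.6% with saline, both times, and at 58.9 and 55.7% for sham 1 and 2. At the 3565 sites under 20% of the sparse windows, the values were higher and the gap wider, with 6.43 and 6.37% in saline and 4.64 and 3.58% in sham.

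CpG-dense windows served as a reference for each library at sites of low level, called the background here. This background can itself hold a difference between groups. Subtraction also leaves a remainder where a difference grows with the level. In the 16961 autosomal windows with 10 or more shared sites and a median under 20%, the sites under 20% had 2.44 and 2.49% in saline, 2.12% in sham 1, 1.18% in sham 2, and 2.24 and 2.22% in 5AZA. Sham 2 was low there too. With this background subtracted library by library, the sites of the low isolated windows were left with 2.56 and 2.45 points in saline, 1.58 and 1.58 points in sham, and 1.53 and 1.53 points in 5AZA. Both sham libraries were then level. Saline stood 0.925 points above sham after the subtraction (exact permutation p = 0.33, the smallest possible), and 1.48 points in the sparse windows. Against sham 1 alone these were 0.927 and 1.42 points. Windows with 3 to 9 shared sites and a median under 20% that lay within 2 windows of a CpG-dense one, 3169 in number, differed by 0.370 points on this measure (0.398 against sham 1 alone), and isolated intermediate windows by 3.59 points (3.23).

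**Figure D3:**
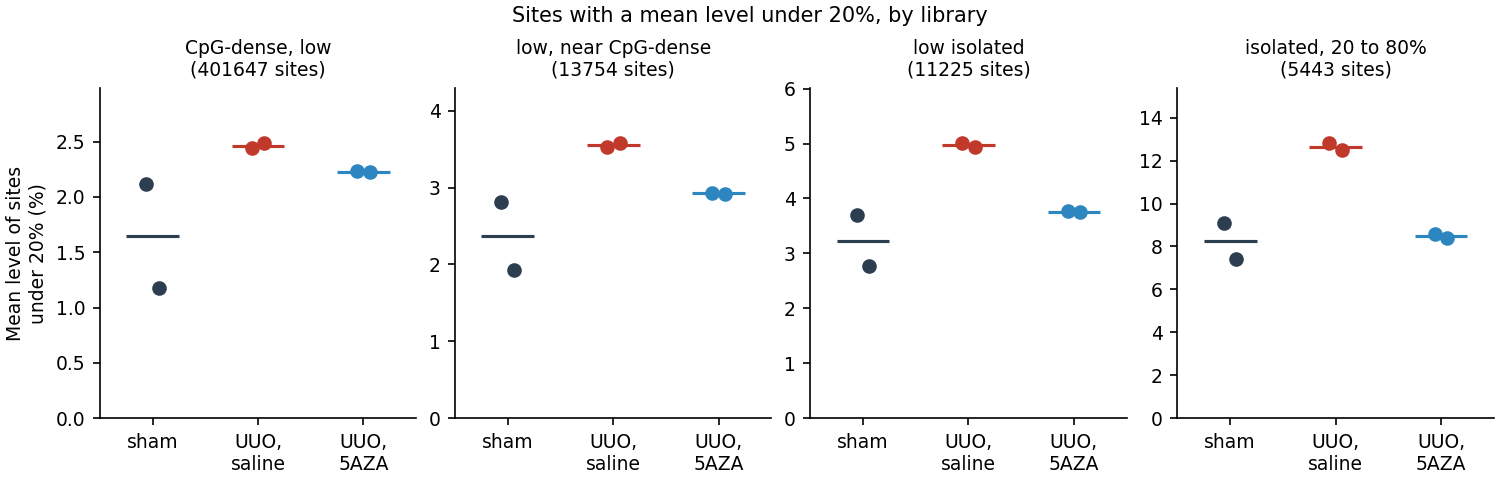
Mean level (y axis, percent, a separate scale from 0 in each panel) of the sites with a mean level under 20% in 4 kinds of window, for each library (points) of the 3 groups, with group means as bars. In the low isolated windows (the panel of 11225 sites) both saline libraries lie at 4.94 and 5.00%, and the other 4 libraries lie between 2.76 and 3.76%.

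Among sites under 20%, the difference in points was larger in classes of higher level. With both sham libraries averaged, the ratio of saline to sham went the other way. It was 2.26 at sites of 0 to 1% and 1.43 at sites of 10 to 20%. Sham 2 was far below sham 1 at sites of 0 to 1%, with 0.117% against 0.511%. Against sham 1 alone the ratio had no such fall. At sites of these windows at 1 to 2%, saline had 1.85 and 1.84% and sham 1.42 and 0.640%, whereas at sites of 10 to 20% saline had 17.8 and 17.3% and sham 12.9 and 11.6%, a difference of 5.28 points (4.62 against sham 1 alone). Above 20% it was not larger still: it was 3.69 points at sites of 20 to 60%, where the groups overlapped and the value against sham 1 alone was -0.253, then 3.44 points at 60 to 80% and 4.08 points at 80 to 100%. Sites of 10 to 20% in CpG-dense windows differed by 3.08 points (2.03 against sham 1 alone), and those in isolated intermediate windows by 6.70 (5.59). At the level of whole windows, the 657 windows with a median under 2% had mean medians of 1.72 and 1.87% in saline against 1.37 and 0.385% in sham. The 513 windows with a median of 10 to 20% had 19.1 and 18.9% in saline against 14.6 and 13.1% in sham. This class differed by 5.10 points, and by 4.34 points when only sham 1 was used. With both sham libraries averaged, its ratio of saline to sham was 1.37, against 2.04 in the class under 2%. Against sham 1 alone the ratios of both classes were close to each other. In each of the 4 classes of median both saline libraries were above both sham libraries. Of the 513 windows in the highest class, 279 were sparse, against 167 of the 657 in the lowest.

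**Figure D4:**
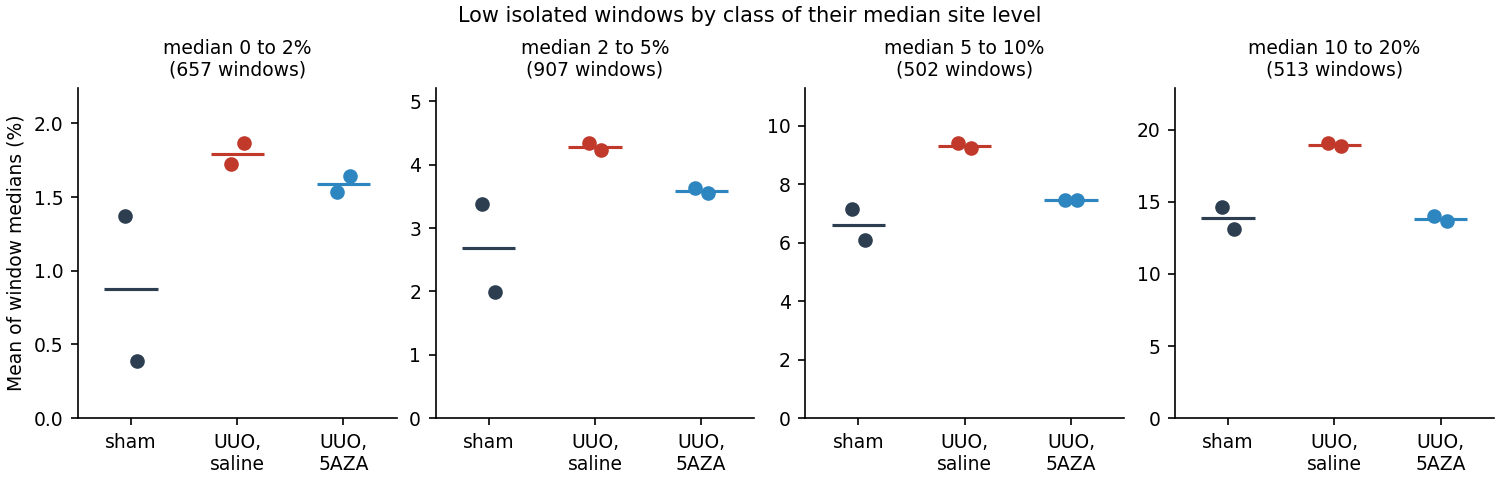
Mean of the window medians (y axis, percent, a separate scale from 0 in each panel) for low isolated windows grouped by their median site level over all libraries, with points for libraries and bars for group means. In the class of 10 to 20% both saline libraries lie at 18.9 and 19.1%, and the other 4 libraries lie between 13.1 and 14.6%.

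Window by window, the difference was small and mostly in one direction. Both saline libraries were above both sham libraries in 1149 of the 2579 windows (44.6%), against 36.3% of all 89813 windows. They were below both in 93 (3.61%), against 8.99% of all. The 16961 CpG-dense windows of low median had 52.2% above and 1.17% below. The 3169 windows near a CpG-dense one had 40.1 and 3.85%, and isolated intermediate windows 49.3 and 6.66%. The 44056 isolated windows of high median had 25.7 and 13.2%. The share above was thus not highest in the low isolated windows. Their median difference was 2.01 points, against 1.27 points in all windows. Only 75 low isolated windows (2.91%) differed by 10 points or more. One of the 2579 windows passed an adjusted p of 0.05 in edgeR's quasi-likelihood test with Benjamini-Hochberg adjustment over all windows, a share of 0.0388%, against 45 of all 89813 windows (0.0501%). That window was higher in saline, as were 0.0445% of all windows, and none was lower, against 0.00557% of all. At an unadjusted p under 0.05 there were 164 windows (6.36%), against 10.4% of all windows. Of these, 154 were higher in saline (5.97%, against 8.83% of all) and 10 lower (0.388%, against 1.61%).

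The second comparison concerned 5AZA in obstructed kidneys. Low isolated windows had lower mean levels in each 5AZA library than in each saline library. Their mean was 25.3% for 5AZA 1 and 2, against 26.7% for saline 1 and 2, which makes -1.43 points (exact permutation p = 0.33, the smallest possible). In the sparse windows it was -1.87 points and in all windows -3.39 points. With all reads pooled the groups overlapped, at 25.1 and 25.9% for 5AZA against 25.9 and 26.6% for saline. Sites under 20% averaged 4.97% ± 0.0477 (SD, n = 2) with saline. With 5AZA they averaged 3.76% ± 0.00893 (SD, n = 2), lower by a ratio of 0.756, or -1.21 points. At such sites the ratio was 0.872 in all windows and 0.904 in CpG-dense windows with a median under 20%. It was 0.823 in the 3169 windows near a CpG-dense one and 0.670 in isolated intermediate windows. The sparse windows differed by -1.83 points at such sites. With the median site in place of the mean the difference was -0.488 points. After subtraction of the CpG-dense background the difference was -0.978 points. It was -0.392 points in the windows near a CpG-dense one and -3.94 points in isolated intermediate windows. By class of window median, the 5AZA difference was -0.207 points under 2%, -0.699 points at 2 to 5%, -1.85 points at 5 to 10% and -5.13 points at 10 to 20%. Among sites of 60% or more in the low isolated windows, 5AZA had 76.5 and 76.2% and saline 78.4 and 78.2%.

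In 923 windows (35.8%) 5AZA 1 and 2 were lower than saline 1 and 2 alike, against 53.5% of all windows. In 232 (9%) they were higher, against 3.82% of all. The 16961 CpG-dense windows of low median had 32.7% lower and 7.94% higher. The 3169 windows near a CpG-dense one had 29.6 and 9.62%, and isolated intermediate windows 58.1 and 3.28%. The 44056 isolated windows of high median had 61.6 and 1.79%. edgeR called 3 of the 2579 windows at an adjusted p under 0.05, or 0.116%, all lower with 5AZA, whereas 1396 of all windows were called (1.55%), 0.00445% of all being higher. At an unadjusted p under 0.05 there were 108 low isolated windows (4.19%), against 23.2% of all windows. Of these, 95 were lower (3.68%, against 22.9% of all) and 13 higher (0.504%, against 0.334%). The saline libraries enter both this comparison and that with sham.

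The third comparison set obstructed kidneys given 5AZA against sham. Against sham 1 the low isolated windows were nearly level, with a difference of 0.0577 points in their mean and of 0.0572 points at sites under 20%. In the sparse windows these were -0.0814 and -0.0618 points. With all reads of the low isolated windows pooled, the difference from sham 1 was -0.647 points. Against both sham libraries the mean differed by 0.999 points (exact permutation p = 0.33, the smallest possible). Sites under 20% differed by 0.526 points, and by -0.0525 points after subtraction of the CpG-dense background. Both 5AZA libraries were above both sham libraries in 697 windows (27%), against 13.2% of all windows, and below both in 209 (8.1%), against 32.2%. CpG-dense windows with a median under 20% had 34% above and 3.14% below. The 3169 windows near a CpG-dense one had 27.6 and 8.02%, and isolated intermediate windows 14.4 and 22.2%. edgeR called 0 of the 2579 windows at an adjusted p under 0.05, and 1 of all windows (0.00111%); limma on log2 ratios also called 0. At an unadjusted p under 0.05 there were 40 (1.55%), against 14.7% of all windows. Of these, 32 were higher with 5AZA (1.24%, against 1.44% of all) and 8 lower (0.31%, against 13.3%). By limma, 34 had an unadjusted p under 0.05.

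The window called between saline and sham lay on chromosome 2 at 30599001 to 30600000 (mm9, 9 shared sites, 11 at any coverage, 352 to 949 reads per library). Its mean level was 42.5 and 40.1% in saline, 30.3 and 26.9% in sham, and 33.4 and 34.7% in 5AZA, so that the groups did not overlap. The difference between saline and sham was 12.7 points (edgeR adjusted p = 0.0458). Saline was highest at 5 adjacent inner sites, 73 to 111 bp from the first. At 30599713 the level was 24.1 and 19.2% in saline, 0% in both sham libraries and 14.3 and 9.26% in 5AZA. At 30599671, a highly methylated site before them, the group means were 75.8% in saline, 51.6% in sham and 72.2% in 5AZA. At 30599715 it was 24.1 and 23.1% in saline, 0% in both sham libraries, and 12.5 and 13.0% in 5AZA. The sites at 30599713 and 30599715 had 42 to 116 reads in each library, at the lower end of which a count of 0 allows a level of up to 7.14% (3 reads, counting error only), and the sites of a stretch can be read on the same molecules. The last site, at 30599823, was at 87.8 and 89.8% with saline against 89.8 and 85.7% for sham, which overlap. The first site, at 30599604, went the other way, with 14.3 and 13.3% in saline, 41.2 and 21.1% in sham and 5.56 and 8.82% in 5AZA, from 15 to 36 reads. With 1 library left out, the adjusted p ranged from 0.0436 to 0.444.

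The 3 windows called between 5AZA and saline had a similar profile, with high sites at one or both ends and inner sites that were highest in saline. On chromosome 12 at 75083001 to 75084000 (7 shared sites, 539 to 755 reads per library), the window level was 44.2 and 38.6% in saline, 29.7 and 27.8% in 5AZA and 29.9 and 27.7% in sham, a difference of -12.6 points with 5AZA (edgeR adjusted p = 0.0430). At its inner site at 75083769, read 108 to 151 times, saline had 31.1 and 22.6%, 5AZA 13.0 and 13.0%, and sham 9.86 and 11.4%. On chromosome 5 at 134697001 to 134698000 (7 shared sites but 16 at any coverage, 436 to 1148 reads), the window level was 31.4 and 22.3% in saline, 15.9 and 15.3% in 5AZA and 16.3 and 14.6% in sham (edgeR adjusted p = 0.0470). Its site at 134697941 had 29.9 and 18.2% in saline, against 6.33 and 5.63% in 5AZA and 6.33 and 3.17% in sham, while its first site, 4 bp away, had 67.2 to 77.5% in all 6 libraries. On chromosome 5 at 74447001 to 74448000 (5 shared sites, 229 to 583 reads), saline had 40.9 and 31.8%, 5AZA 20.7 and 21.3%, and sham 23.2 and 27.7% (edgeR adjusted p = 0.0429). In all 3 windows saline 1 was the highest library. With 1 library left out, none of the 3 was called, with adjusted p-values of 0.059 to 0.26.

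**Figure D5:**
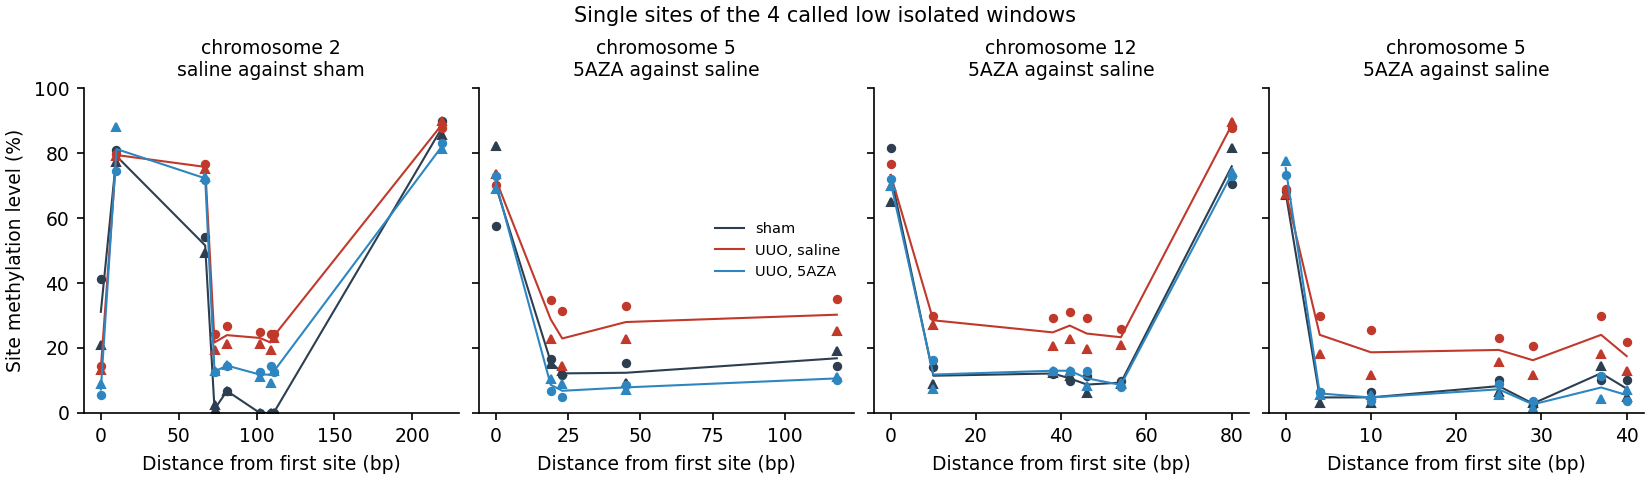
Site level (y axis, percent) by distance from the first shared site (x axis, bp) in the 4 called windows; circles are library 1 and triangles library 2 of sham (dark), UUO with saline (red) and UUO with 5AZA (blue), and lines join group means. Saline lies highest at the run of low inner sites in each panel, whereas at the first site of each panel the groups do not separate that way.

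Other windows with the smallest p in these comparisons did not pass the threshold. On chromosome 4 at 125234001 to 125235000 the level was 40.7 and 41.4% in saline, 28.0 and 25.9% in sham and 30.6 and 31.3% in 5AZA (edgeR adjusted p = 0.1003 for saline against sham). Its inner site at 125234279 had 30.1 and 29.4% in saline and 8.06 and 12.1% in sham. On chromosome 11 at 107202001 to 107203000 both saline libraries were at 53.0 and 52.0%, both sham libraries at 36.5 and 34.6%, and both 5AZA libraries at 39.2 and 35.4% (edgeR adjusted p = 0.0541 for 5AZA against saline). On chromosome 6 at 145084001 to 145085000 the values were 47.0 and 46.6% in saline, 35.0 and 26.1% in sham, and 33.6 and 35.4% in 5AZA. Windows with the smallest p between 5AZA and sham did not all have saline highest. On chromosome 2 at 58176001 to 58177000, saline had 24.4 and 24.3%, 5AZA 24.6 and 25.3%, and sham 19.9 and 18.9% (edgeR adjusted p = 0.126 for 5AZA against sham). On chromosome 18 at 10052001 to 10053000, 5AZA was highest, at 28.6 and 30.2%, against 25.9 and 26.0% in saline and 20.9 and 25.5% in sham.

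Low level was shared by the libraries. In 2144 of the 2579 windows (83.1%) the median site level was under 20% in each library on its own. Windows were also chosen with the level condition on 5 libraries and read in the library left out. The coverage condition still used all 6 libraries. Of these windows, 88.8 and 89.6% had a median under 20% in saline 1 and 2 when left out. For sham 1 and 2 the shares were 95.6 and 96.2%, and for 5AZA 1 and 2 they were 96.5 and 97.1%. Sites under 20% in the other 5 libraries then had 5.34 and 5.25% in the unused saline libraries, 3.76 and 2.81% in sham, and 3.79 and 3.75% in 5AZA. The saline libraries were thus also the highest when their levels did not help to choose the windows or sites.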

How the data were processed

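The 6 bisulfite libraries of mouse kidney, in 3 groups of 2, were analysed from the files that the authors deposited. Each file lists CpG sites with deposited counts of covering and methylated reads and a fraction that the authors computed from them, which equalled their quotient to the decimals given; the counts were used. Per the submitters' processing notes, Bowtie and mm9 were used; how methylation was called is not given here. File positions were taken as 0-based and are printed 1-based.

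Methylated and unmethylated counts were summed over shared sites in windows of 1000 bp and tested with edgeR 4.0.16 in R 4.3.3 (quasi-likelihood test, all 6 libraries, an intercept per library, a common dispersion of 0.00632, Benjamini-Hochberg over 89813 windows). The edgeR fit was tested on simulated data. An exact permutation test, two-sided, served for library means (scipy 1.17.1). The windows, lists and tests were chosen with earlier results of these data known. Windows were named by rule: called windows and the smallest p of each comparison, the most sites with the lowest level, the nearest to 20%, and the longest runs. Alternatives were other coverage minima, level limits, isolation and site numbers, shifted windows, limma 3.58.1, fewer libraries and a replicate block. Reads were not counted by molecule. The cell type markers chosen for the kidney need gene positions on mm9 and were not used here. Averages over inner sites and over sites under 20% were added after seeing the data.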

Additional observations from a re-analysis of the deposited data

How the results depend on the processing

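The 3 differences in mean window level kept their direction under each alternative taken alone. Saline minus sham ranged from 1.48 to 3.37 points, 5AZA minus saline from -2.03 to -0.746 and 5AZA minus sham from 0.0577 to 1.94. With sham 1 alone, however, 5AZA minus sham was -0.0814 points in the sparse windows and -0.647 points with all reads pooled. Among alternatives taken alone, the only reversal was at sites under 20% between 5AZA and sham, -0.0422 points when reads rather than sites were averaged. Its cause was not tested. At these sites 5AZA minus saline ranged from -1.83 to -0.488, the latter with the median site, and 5AZA minus sham reached 1.29 with the median site. The number of windows was 5748 without the condition on neighbours and 964 with fewer than 10 sites at any coverage. Calls between saline and sham (1) became 0 at a coverage minimum of 5, without candidate fragment-end sites and by limma (122 at an unadjusted p under 0.05), and 2 at a minimum of 20; leaving out a library gave 0 to 3, with 0 without saline 1, saline 2 or sham 2 and 3 without sham 1, of which 2 were lower in saline and 0 were the window called with all libraries. Calls between 5AZA and saline (3) became 6 at a minimum of 20, 1 without candidate fragment-end sites and 0 by limma (74 at an unadjusted p under 0.05); leaving out a library gave 0 to 2, with 0 without saline 1, saline 2 or 5AZA 2. Calls between 5AZA and sham ranged from 0 to 2, with 2 without sham 1. Of the windows called without a library between 5AZA and saline, 0 were among the 3. A replicate block for the numbers that the saline and 5AZA labels share gave 6 calls, and -1.43 points for the mean level. Over all windows the deviations of same-numbered libraries correlated at -0.01. That value cannot tell whether these libraries shared a batch, because an equal shift of all windows leaves no correlation. Saline and sham do not share 2 numbers in the labels. Inner sites and sites under 20% were looked at as alternatives chosen after seeing the data. No alternative changes that 2 libraries a group limit each comparison, nor that sham 2 was shallower.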
